A study of Homo sapiens with 6 samples.

Results

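The genes of oxidative phosphorylation, encoded by the nucleus and by the mitochondrial genome, were compared between 786-O cells and their derivative 786-O FOXD1null. A gene was a member if its symbol began with NDUF, UQCR, ATP5 or COX followed by a digit, or was SDHA, SDHB, SDHC, SDHD, CYC1 or a protein-coding MT- gene, and pseudogenes were left out. This gave 117 of the 16922 genes of the deposited table: 83 nuclear genes for subunits, 13 mitochondrially encoded genes, 17 assembly factor genes and 4 noncoding genes that carry a matching name. The nuclear subunit genes were 37 of complex I, 4 of complex II, 10 of complex III, 14 of complex IV and 18 of complex V. By its symbol, ATP5IF1 was counted among the 18, and so among the 83, though it encodes an inhibitor of the ATP synthase and not a subunit. All 117 members passed the filter on low values, a mean normalized count of at least 10 over the 6 libraries.

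The 786-O line comes from a clear cell renal cell carcinoma (ccRCC), and its libraries carry the genotype label parental. The other libraries carry the label FOXD1null, for a derivative that the study's laboratory had made earlier from the same line by inactivating the forkhead transcription factor FOXD1, and the sources used here do not say whether it is a single clone. Each line gave 3 RNA extracts from plates grown to the same confluency in the same medium, with no treatment, so the libraries of a group measure the spread between extracts of 1 line. Every value below is a normalized count, that is, the reads of a gene divided by the library's size factor, unless another quantity is named.

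Oxidative phosphorylation runs in the inner mitochondrial membrane. Complexes I and II pass electrons from NADH and succinate to ubiquinone, complex III passes them on to cytochrome c and complex IV to oxygen, while complexes I, III and IV pump protons whose return through complex V, the ATP synthase, drives ATP formation. The mitochondrial genome encodes 13 of the proteins, 7 of complex I, 1 of complex III, 3 of complex IV and 2 of complex V, all transcribed as long RNAs that are cut at transfer RNAs, and the nucleus encodes all the rest, complex II among them. ccRCC cells with lost VHL keep hypoxia-inducible factors active, a state known to turn cells from respiration towards glycolysis.

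FOXD1, the targeted gene, stood at 432, 498 and 480 (786-O) and at 1277, 1048 and 901 (FOXD1null). Its RNA was thus higher in each of the libraries labelled FOXD1null, and directions below follow the labels. Total reads in genes ranged from 30982463 to 37843830. All 9 renal carcinoma markers were in the table, among them PAX8, and no endothelial marker was. FOXD1null replicate 1 stood apart. A set of 20 genes had a mean of at least 200 in 786-O and at most 5 in FOXD1null replicates 2 and 3. In replicate 1 they sat at 13.2 to 26.0% of the way from that low level to the 786-O level (median 19.1%). The genes were picked for low values in replicates 2 and 3, so replicate 1 could hardly lie below those. No like pick was made with replicate 2 or 3 held out. The muscle markers (6 of 10 in the table) summed to 7.81, 4741 and 64.4 in the 786-O libraries and to 417, 3.03 and 5.83 in FOXD1null. They were thus highest in 786-O replicate 2 and next in FOXD1null replicate 1, and their part in the results was not tested. In 786-O replicate 2, MYH6, the myosin of heart atria, had a count of 2703, and 4 of the 5 hepatocyte markers in the table, ALB, FGA, FGB and FGG, were also highest there. The other, SERPINA1, was at 8171, 9024 and 8599 in FOXD1null against 2671, 3153 and 2856 in 786-O, and set the sum of that list. Counts of calls are therefore given with all 6 libraries and without FOXD1null replicate 1.

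Reads of neighbouring mitochondrial genes are not all separable, because the genes of 2 pairs overlap on the same strand. The 2 stretches are shown because a read that falls in them cannot be given to a single gene. The overlap is in capitals, with 15 bases on either side in lower case, read from the hg38 mitochondrial chromosome, plus strand, at chrM:8512-8587 and chrM:10745-10781.
MT-ATP8 and MT-ATP6: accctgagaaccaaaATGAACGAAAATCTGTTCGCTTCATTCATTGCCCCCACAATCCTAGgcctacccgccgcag
MT-ND4L and MT-ND4: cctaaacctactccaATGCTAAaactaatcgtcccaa
The overlaps are 46 bases (8527 to 8572) and 7 bases (10760 to 10766) long, and each begins with the ATG start codon of the downstream gene. MT-ND6 is the only member on the opposite strand, and since no source used here gives the strand setting of the counting, its reads cannot be told apart from those of the heavy-strand RNA across it.

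Summed over genes, the mitochondrial and the nuclear genome moved apart within the FOXD1null group. The 13 mitochondrially encoded genes took 3.94, 3.91 and 3.74% of reads in 786-O and 3.54, 3.97 and 4.16% in FOXD1null. The 83 nuclear subunit genes took 0.751, 0.763 and 0.754% of reads in 786-O and 0.853, 0.684 and 0.678% in FOXD1null. FOXD1null replicate 1 therefore had the lowest mitochondrial and the highest nuclear share of all 6 libraries, and FOXD1null replicates 2 and 3 had the highest mitochondrial and the lowest nuclear shares. The ratio of mitochondrial to nuclear reads was 5.11 ± 0.149 in 786-O and 5.36 ± 1.06 in FOXD1null (SD, n = 3), with single values of 4.15, 5.81 and 6.13 in FOXD1null against 4.96 to 5.25 in 786-O. The group means differed by less than the spread of the FOXD1null libraries, which lay on both sides of 786-O.

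**Figure D1:**
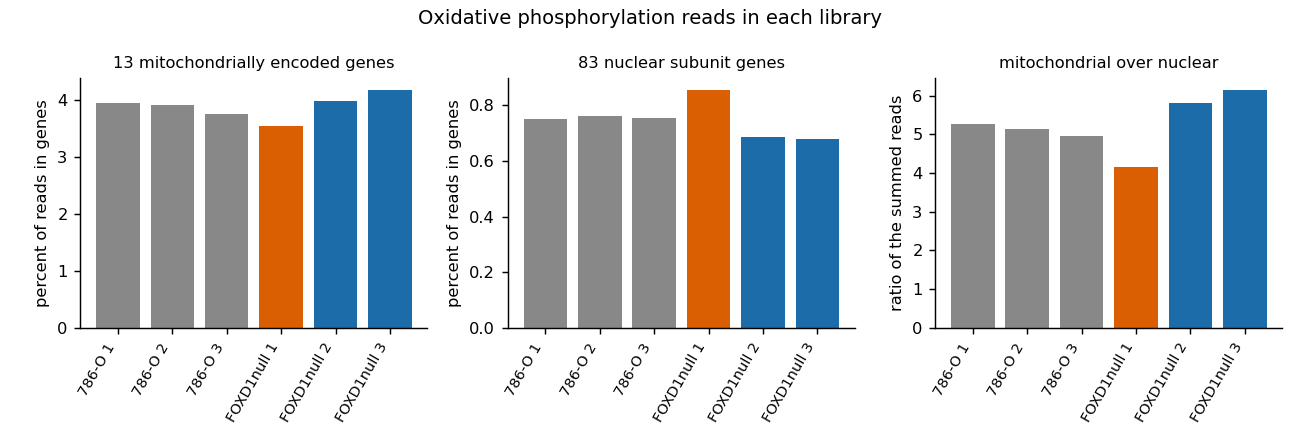
Share of each library's reads in genes taken by the 13 mitochondrially encoded genes (left, percent) and the 83 nuclear subunit genes (middle, percent), and the ratio of the summed reads (right), 1 bar per library. FOXD1null replicate 1 (orange) has the ratio 4.15, below the 786-O libraries (grey), and FOXD1null replicates 2 and 3 (blue) have 5.81 and 6.13, above them.

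Among the mitochondrially encoded genes, 4 were upregulated and 1 downregulated in the libraries labelled FOXD1null with all 6 libraries (limma, adjusted p of at most 0.05), and 8 were not called. Over all 16901 genes tested, 16.3% were called higher and 17.1% lower. Over the 13 genes the median change was 0.10 on the log2 scale, beside -0.01 over all genes. Without FOXD1null replicate 1, 8 of the 13 were called higher and 1 lower, against 27.4% and 27.7% of all genes tested, and the median was 0.13. The 786-O and FOXD1null values of 8 of the 13 genes did not overlap, as for 49.0% of all genes.

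The genes called higher belong to complexes I and III. MT-ND6 (ENSG00000198695, chrM:14149-14673, minus strand), a membrane subunit of complex I, had 29784, 34391 and 29629 in 786-O and 45980, 43408 and 45525 in FOXD1null. All 3 FOXD1null libraries lay above 786-O and close to each other, at a log2 fold change of 0.53 (SE 0.077, limma adjusted p = 0.00138). MT-CYB (ENSG00000198727, chrM:14747-15887, plus strand), the cytochrome b of complex III, had 62494, 60489 and 59860 in 786-O and 70659, 88180 and 90961 in FOXD1null. Here FOXD1null replicate 1 lay nearest to 786-O without overlap, and the log2 fold change was 0.44 (limma adjusted p = 0.0105), or 0.56 without that library.

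MT-ND2, a proton-pumping subunit of complex I, had 63469, 64287 and 63563 in 786-O and 74578, 85069 and 87822 in FOXD1null. Its log2 fold change was 0.37 (SE 0.077, limma adjusted p = 0.00755). MT-ND4, of the same membrane arm, had 199142, 194333 and 190260 in 786-O and 206587, 253410 and 259851 in FOXD1null. It was the called member nearest to the threshold, with a log2 fold change of 0.30 (SE 0.098, limma adjusted p = 0.0483), and FOXD1null replicate 1 exceeded the highest 786-O value by far less than replicates 2 and 3 did. With the libraries scaled to equal totals MT-ND4 was no longer called (limma adjusted p = 0.14), while MT-ND6, MT-CYB and MT-ND2 were.

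MT-CO3 (ENSG00000198938, chrM:9207-9990, plus strand), a core subunit of complex IV, was the only mitochondrially encoded gene called lower. It had 127392, 126042 and 124408 in 786-O and 109980, 105032 and 107164 in FOXD1null. The FOXD1null values were all below 786-O, with a log2 fold change of -0.23 (SE 0.062, limma adjusted p = 0.022), and the call was lost when any 1 library other than FOXD1null replicate 1 was left out. The other mitochondrially encoded subunits of complex IV, MT-CO1 and MT-CO2, which hold the oxygen-reducing centre and the site of electron entry, had log2 fold changes of -0.01 and -0.06 and were not called with or without FOXD1null replicate 1. The same was found for MT-ATP6 and MT-ATP8 of the ATP synthase membrane part, at -0.05 and -0.08.

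The remaining complex I genes were called higher without FOXD1null replicate 1 but not with it. MT-ND5 had 101847, 102887 and 98460 in 786-O and 94833, 132361 and 137338 in FOXD1null, so that replicate 1 was below and replicates 2 and 3 above all 786-O libraries. MT-ND4L showed the same split more widely, with 39554, 35115 and 36565 in 786-O and 26181, 46564 and 47231 in FOXD1null. The log2 fold changes rose from 0.25 to 0.42 for MT-ND5 and from 0.06 to 0.34 for MT-ND4L when that library was left out (limma adjusted p = 6.16e-08 and 5.52e-06). This split, with replicate 1 below and the other FOXD1null libraries above 786-O, held for 2 of the 13 genes and for 6.15% of all genes. MT-ND3 and MT-ND1 had FOXD1null values above all 786-O values in each library, at log2 fold changes of 0.20 and 0.10, and were called only without replicate 1 (limma adjusted p = 0.00362 and 0.0106).

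**Figure D2:**
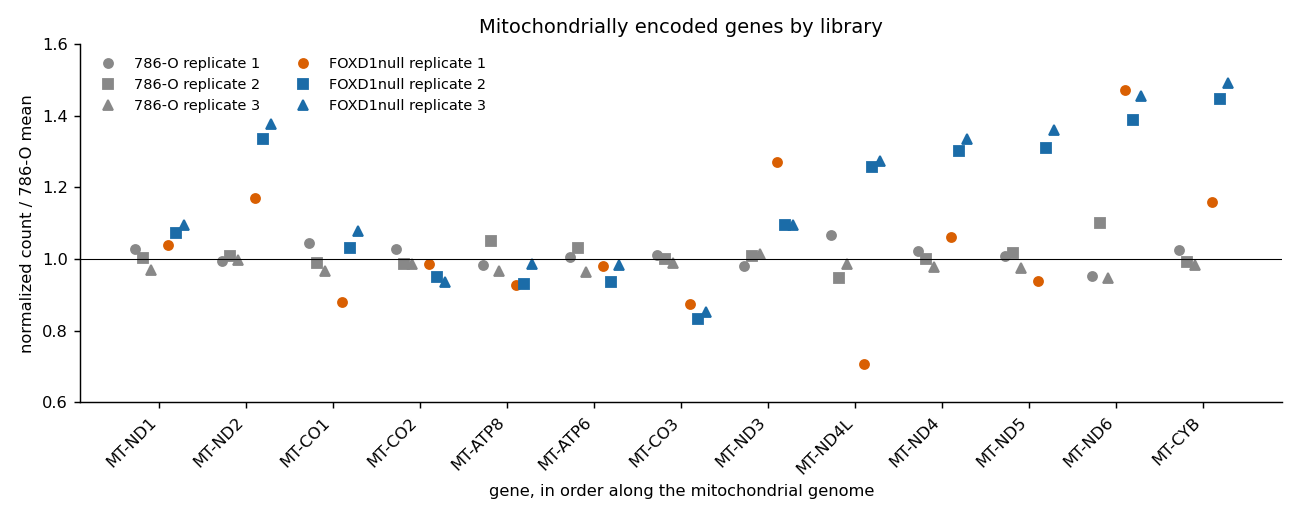
Normalized count of each mitochondrially encoded gene divided by its 786-O mean (vertical axis, no unit, not starting at 0), in order along the mitochondrial genome, 1 point per library. MT-ND6, MT-CYB, MT-ND2 and MT-ND4 lie above 1 in all 3 FOXD1null libraries and MT-CO3 below 1, and MT-ND4L in FOXD1null replicate 1 (26181) is far below the other FOXD1null libraries.

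Per kilobase of exon, the mitochondrial members lay far above the nuclear ones. MT-CO2 was highest with 251758 in 786-O and 240885 in FOXD1null, and MT-ND3 lowest of the 13 in both groups with 43968 and 50716. The most abundant nuclear subunit gene per kilobase in each complex was NDUFS5 for I (9150 in 786-O), SDHC for II (1843), UQCRH for III (4663), COX8A for IV (6638) and ATP5F1B for V (8292). NDUFS5, UQCRH, COX8A and ATP5F1B were looked up after values had been seen. UQCRH shares nearly its whole coding sequence with the copy UQCRHL, so its level is uncertain, and none of these 4 genes was called with all 6 libraries.

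Few nuclear subunit genes were called with all 6 libraries: 4 of 83 higher and 1 lower, 6.02% in all, beside 33.4% of all genes tested. Their median log2 fold change was 0.04. With the libraries scaled to equal totals, 1 was called higher and 6 lower, and the split over all genes went from 2751 higher and 2888 lower to 2040 higher and 3878 lower. Leaving out any single 786-O library left no nuclear subunit gene called higher. Over all genes, 1801 to 1983 were then called higher, down from 2751. DESeq2 on the recovered reads called 8 nuclear subunit genes higher and 3 lower, beside 2930 and 2918 of all genes.

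Without FOXD1null replicate 1, 12 nuclear subunit genes were called higher (14.5%, against 27.4% of all genes) and 34 lower (41.0%, against 27.7%), with a median log2 fold change of -0.09 beside -0.0038 over all genes. With equal library totals as well, 3 were called higher and 54 lower, beside 3564 higher and 5972 lower of all genes. Without FOXD1null replicate 1 and with the size factors kept, 72 of the 117 members were called, 25 higher and 47 lower. These were 21.4% and 40.2% of the members, beside 27.4% and 27.7% of all genes. The 72 included all 21 called with 6 libraries, each in the same direction. The median of log2(value + 1) minus the 786-O mean was 0.27 in FOXD1null replicate 1, -0.06 in replicate 2 and -0.12 in replicate 3 over the 83 genes, and -0.02, 0.13 and 0.13 over the 13 mitochondrially encoded genes. FOXD1null replicate 1 was above all 786-O libraries while replicates 2 and 3 were below them in 41 of the 83 nuclear subunit genes (49.4%), in none of the 13 mitochondrially encoded genes and in 1008 of all 16901 genes (5.96%). By complex, this split held for 20 of 37 genes in complex I, 1 of 4 in II, 7 of 10 in III, 5 of 14 in IV and 8 of 18 in V. FOXD1null replicate 1 was the highest FOXD1null library in 79 of the 83 genes and in 7533 of all 16901 genes. 786-O replicate 2, the library with the highest muscle markers, had a median of 0.0028 over the 83 genes.

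**Figure D3:**
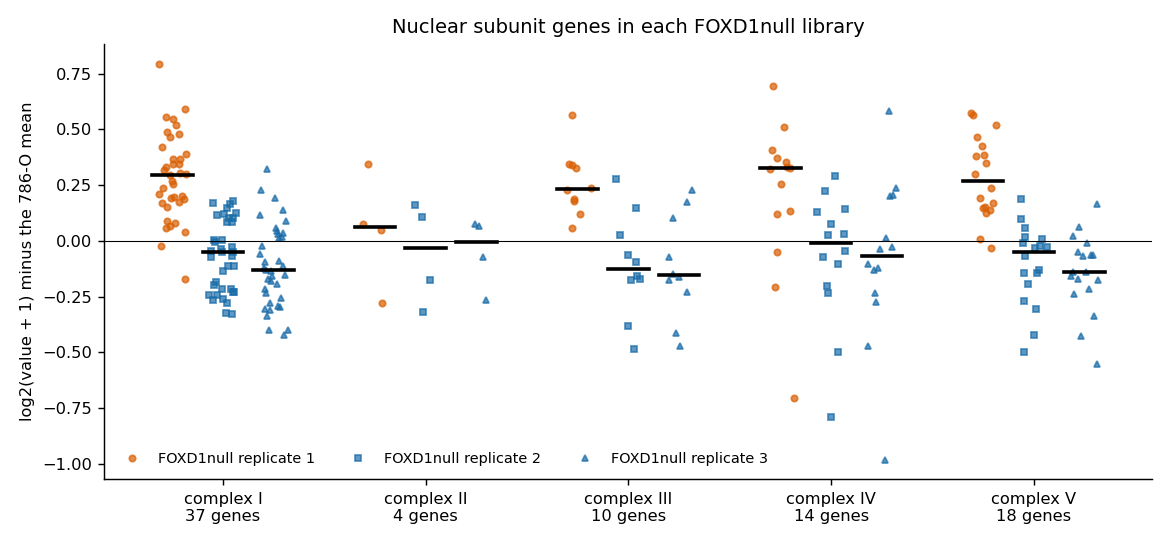
Each nuclear subunit gene in each FOXD1null library, as log2(value + 1) minus the 786-O mean of log2(value + 1) (vertical axis), by complex, with a black bar at the median over genes. FOXD1null replicate 1 has medians above 0 in every complex, from 0.06 in complex II to 0.33 in complex IV, and replicates 2 and 3 have medians below 0.

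In complex I, which takes electrons from NADH, 1 of 37 nuclear genes (2.7%) was called with all 6 libraries, beside 33.4% of all genes. NDUFA5, an accessory subunit of the matrix arm, had 2172, 2480 and 2352 in 786-O and 2786, 2620 and 2735 in FOXD1null. All FOXD1null values lay above 786-O by a small step, with a log2 fold change of 0.22 (SE 0.072, limma adjusted p = 0.0464), and the median change of its 28 tested neighbours within 5 Mb was 0.26. With equal library totals it was not called (0.13, limma adjusted p = 0.21). None of the 7 nuclear core subunits, which carry the flavin and the iron-sulfur clusters, was called by limma, edgeR or DESeq2 with all 6 libraries. Of these, 0 had an unadjusted limma p under 0.05, beside 7296 of all 16901 genes. Without FOXD1null replicate 1, 3 of these 7 were called lower, beside 27.7% of all genes.

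Without FOXD1null replicate 1, 5 of the 37 nuclear complex I genes were called higher and 16 lower, beside 27.4% and 27.7% of all genes. The 3 largest changes were in the accessory subunits NDUFB1, NDUFA3 and NDUFA13. NDUFB1 had 541, 539 and 535 in 786-O and 530, 429 and 408 in FOXD1null. Its values were all below 786-O, and the log2 fold change was -0.36 without replicate 1 (limma adjusted p = 3.89e-04) and -0.25 with it (limma adjusted p = 0.117). NDUFA13 had 661, 660 and 661 in 786-O and 698, 568 and 501 in FOXD1null, and NDUFS5 had 5038, 5108 and 4898 against 6310, 4783 and 4494. In both, replicate 1 was above and the other FOXD1null libraries were below all 786-O libraries. The fitted change of NDUFS5 was 0.04 with all libraries and -0.11 without replicate 1 (limma adjusted p = 0.0289).

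Complex II, succinate dehydrogenase, also a step of the citric acid cycle, had 1 gene called alike with and without FOXD1null replicate 1. SDHC (ENSG00000143252, chr1:161314381-161363206, plus strand), a membrane anchor of the complex, had 3475, 3493 and 3550 in 786-O and 2891, 2808 and 2918 in FOXD1null. The 3 FOXD1null libraries lay close together below 786-O, with a log2 fold change of -0.29 with or without replicate 1 (SE 0.058, limma adjusted p = 0.0063), while its 82 neighbours had a median of 0.12. SDHA, the flavoprotein, which has pseudogenes of near-identical sequence, had 10111, 9440 and 9774 in 786-O and 10309, 10913 and 10299 in FOXD1null and was called only without replicate 1, at 0.12 (limma adjusted p = 0.0204). SDHB and SDHD were not called in either fit.

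In complex III, CYC1 (ENSG00000179091, chr8:144095039-144097525, plus strand), the cytochrome c1 that hands electrons to cytochrome c, was upregulated. It had 7103, 7079 and 7516 in 786-O and 10687, 8775 and 8467 in FOXD1null. Replicate 1 was highest and no value overlapped, with a log2 fold change of 0.36 (SE 0.093, limma adjusted p = 0.019), or 0.25 without that library. UQCRC2, a core subunit, was the member just outside the threshold, with 4004, 4127 and 4159 in 786-O, 4661, 4533 and 4627 in FOXD1null and a log2 fold change of 0.17 (limma adjusted p = 0.0511).

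The opposite direction was found for other complex III genes without FOXD1null replicate 1. Then 6 of 10 were called lower, beside 27.7% of all genes. UQCRFS1 (ENSG00000169021, chr19:29205320-29213151, minus strand), the Rieske iron-sulfur protein, had 2057, 2059 and 2016 in 786-O and 2125, 1458 and 1473 in FOXD1null. Replicate 1 was above the 786-O range and the other FOXD1null libraries far below it, so the log2 fold change was -0.30 with all libraries (limma adjusted p = 0.132) and -0.48 without replicate 1 (limma adjusted p = 2.28e-07). UQCR10, a small accessory subunit, had 1841, 1766 and 1835 against 1969, 1391 and 1362. Its change without replicate 1 was -0.40 (limma adjusted p = 3.25e-06).

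In complex IV, cytochrome c oxidase, 2 of 14 nuclear genes (14.3%) were called higher with all 6 libraries, beside 16.3% of all genes. COX4I1 (ENSG00000131143, chr16:85798633-85807068, plus strand), the regulatory subunit that COX4I2 replaces in hypoxia, had 7504, 7412 and 7633 in 786-O and 12173, 9197 and 8870 in FOXD1null. All FOXD1null values were higher, replicate 1 most of all, with a log2 fold change of 0.41 (SE 0.115, limma adjusted p = 0.0257) or 0.27 without that library, and its 96 neighbours had a median of 0.19. COX7A2L, which helps join complexes III and IV in supercomplexes, had 2705, 2791 and 2827 against 3495, 3066 and 3195, a log2 fold change of 0.23 (limma adjusted p = 0.0369). With equal library totals neither was called (limma adjusted p = 0.057 and 0.16).

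NDUFA4 (ENSG00000189043, chr7:10931943-10940153, minus strand), named after complex I but a subunit of complex IV, had 4399, 4487 and 4530 in 786-O and 4326, 3169 and 3223 in FOXD1null. Replicates 2 and 3 were well below 786-O and replicate 1 just below it, with a log2 fold change of -0.34 (limma adjusted p = 0.0546), or -0.48 without replicate 1 (limma adjusted p = 3.35e-08). Its 29 neighbours had a median of -0.26. COX7C, a small membrane subunit, had 2469, 2475 and 2529 against 2710, 2168 and 2058, and was called only without replicate 1, at -0.24 (limma adjusted p = 2.79e-04).

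Isoforms tied to hypoxia or to single tissues were at low counts. NDUFA4L2, a paralog of NDUFA4 induced by hypoxia-inducible factors, had 23.4, 48.0 and 18.4 in 786-O and 23.7, 32.3 and 41.8 in FOXD1null, with full overlap. COX7A1, the heart and muscle isoform of a complex IV subunit, had 21.2, 16.3 and 17.5 in 786-O and 10.8, 10.1 and 8.74 in FOXD1null. Its values did not overlap, but the log2 fold change of -0.83 was not called (SE 0.296, limma adjusted p = 0.0636). COX7A1 was not highest in 786-O replicate 2, the library with the highest muscle markers. COX4I2, COX6A2, COX6B2, COX7B2, COX8C and ATP5MGL were not analysed here.

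In complex V no nuclear gene was called with all 6 libraries by limma or edgeR. An unadjusted limma p under 0.05 was found for 2 of 18, beside 7296 of all 16901 genes. DESeq2 called 1 higher and 1 lower, beside 2930 and 2918 of all genes. Without FOXD1null replicate 1, limma called 1 higher and 8 lower, beside 27.4% and 27.7% of all genes. The 3 paralogs ATP5MC1, ATP5MC2 and ATP5MC3 encode the same mature c subunit, which forms the rotating ring. ATP5MC3 (ENSG00000154518, chr2:175176258-175181710, minus strand) had 5932, 6429 and 6131 in 786-O and 6030, 4363 and 4196 in FOXD1null. FOXD1null replicate 1 lay within the 786-O range and the others below it, so that the log2 fold change of -0.36 (limma adjusted p = 0.065) became -0.53 without that library (limma adjusted p = 3.2e-08). ATP5MC1 had 2746, 2738 and 2786 against 3038, 2058 and 2052, and -0.42 without replicate 1, with a median of -0.46 over its 151 neighbours on chromosome 17 with all libraries. ATP5MC2 changed least of the 3, with 3467, 3389 and 3517 against 3842, 3154 and 2974, and -0.17 without replicate 1 (limma adjusted p = 0.0025).

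The catalytic head showed the same order of libraries. ATP5F1A, the alpha subunit, had 11272, 11495 and 11279 in 786-O and 11426, 9171 and 8978 in FOXD1null, with -0.32 without replicate 1 (limma adjusted p = 8.55e-07). ATP5F1B, the beta subunit, had 18479, 18530 and 18663 against 21231, 18180 and 17715, and was not called in either fit.

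**Figure D4:**
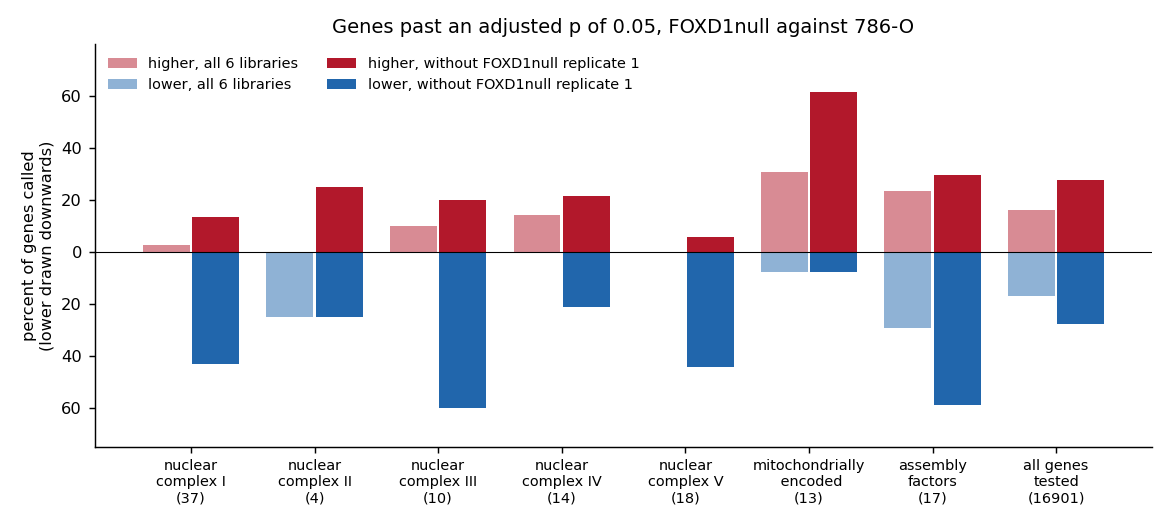
Percent of genes called higher (red, upwards) and lower (blue, downwards) in FOXD1null at a limma adjusted p of at most 0.05, with all 6 libraries (pale) and without FOXD1null replicate 1 (dark). Of the 37 nuclear complex I genes 16 are called lower without that library and none with it, while 8 and 4 of the 13 mitochondrially encoded genes are called higher.

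**Figure D5:**
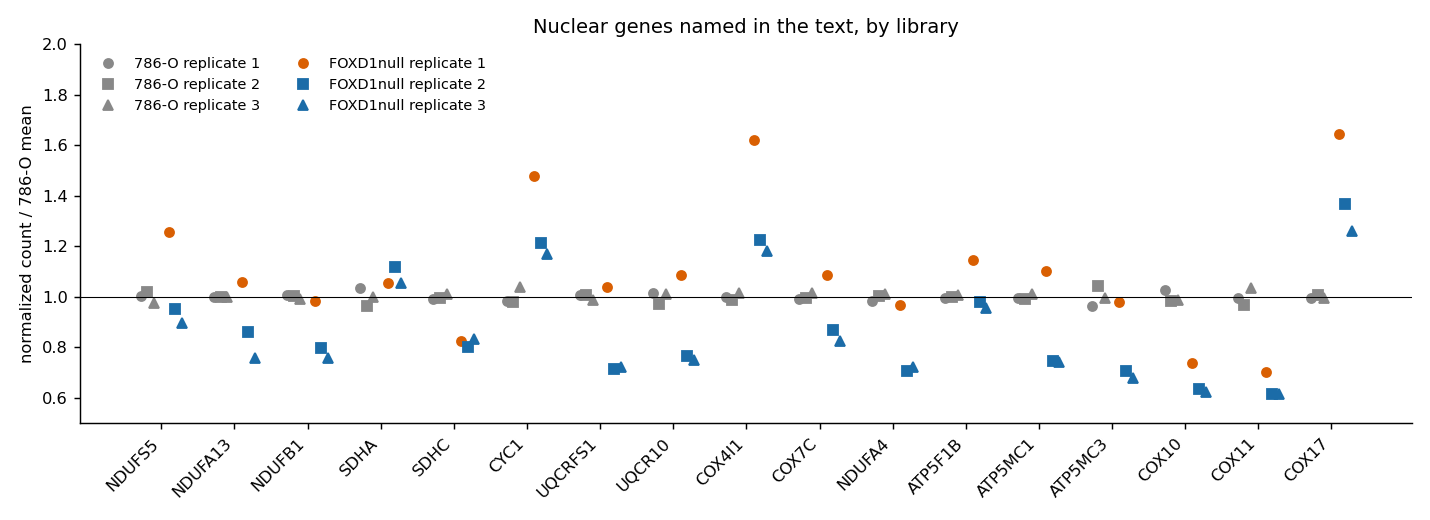
Normalized count divided by the 786-O mean (vertical axis, no unit, not starting at 0) for 17 nuclear genes named in the text, 1 point per library. SDHC, COX10 and COX11 are lower in all 3 FOXD1null libraries and CYC1, COX4I1 and COX17 higher, while UQCRFS1, UQCR10 and ATP5MC1 have FOXD1null replicate 1 above 786-O and the others below.

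Assembly factors build the complexes without staying in them. With all 6 libraries, 4 of 17 were called higher and 5 lower, against 16.3% and 17.1% of all genes. With FOXD1null replicate 1 left out, 5 were called higher and 10 lower, against 27.4% and 27.7%. COX11 (ENSG00000166260, chr17:54951902-54968703, minus strand), which brings copper to MT-CO1, had 2764, 2691 and 2874 in 786-O and 1953, 1709 and 1704 in FOXD1null. The log2 fold change was -0.64 (SE 0.076, limma adjusted p = 5.52e-04). COX10 (ENSG00000006695, chr17:14069490-14231736, plus strand), the farnesyltransferase of heme A synthesis, had 702, 673 and 674 against 503, 435 and 425. Its log2 fold change was -0.59 (limma adjusted p = 0.00176), with no overlap between the groups.

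COX10 and COX11 both lie on chromosome 17, where genes were lower in general. The median log2 fold change was -0.34 over the 1032 tested genes of chromosome 17 and 0.01 over the 15659 of the other nuclear chromosomes, with 42.7% and 15.5% called lower. Of the 6 nuclear members there 3 were called lower with all 6 libraries and all 6 without FOXD1null replicate 1. Without that library, 602 of the 1032 genes of chromosome 17 were called lower, and 4028 of the 15659 on other chromosomes. The neighbours of COX11 and COX10 within 5 Mb had medians of -0.35 and -0.51 with all 6 libraries.

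The other factors that fell lie on other chromosomes. COX20, which holds MT-CO2 during its assembly, had 535, 534 and 564 in 786-O and 457, 328 and 325 in FOXD1null, a log2 fold change of -0.57 (limma adjusted p = 0.0132) beside a neighbour median of -0.03. COX15, the other enzyme of heme A synthesis, fell by 0.31 on the log2 scale (limma adjusted p = 0.0076), from 2126 to 2184 in 786-O to 1633 to 1786 in FOXD1null. NDUFAF1, a complex I assembly factor, was at -0.47 (limma adjusted p = 0.0147) beside a neighbour median of -0.24.

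The upregulated assembly factors were COX17, NDUFAF2, NDUFAF6 and NDUFAF5. COX17 (ENSG00000138495, chr3:119654513-119677454, minus strand), the copper chaperone of complex IV, had 810, 818 and 810 in 786-O and 1334, 1110 and 1023 in FOXD1null. Replicate 1 was highest and all 3 were above 786-O, with a log2 fold change of 0.50 (SE 0.102, limma adjusted p = 0.00685). NDUFAF2 had 425, 437 and 424 against 742, 556 and 548, a log2 fold change of 0.51 (limma adjusted p = 0.0148). NDUFAF6 and NDUFAF5 were at 0.42 and 0.37. NDUFAF3, the most abundant assembly factor per kilobase (1129 in 786-O), was not called.

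Of the noncoding genes, NDUFA6-DT, divergent from NDUFA6, was the only member whose log2 fold change reached 1 in size. It had low counts of 30.1, 18.1 and 25.8 in 786-O and 8.62, 7.07 and 5.83 in FOXD1null, and the log2 fold change was -1.64 (SE 0.333, limma adjusted p = 0.00662). COX10-DT, divergent from COX10, was at -0.57 (limma adjusted p = 0.00381), with 244, 262 and 262 against 184, 172 and 161. Without the strand setting, reads of these genes and of their coding partners cannot be told apart where they overlap.

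A further list of 48 assembly factors with other names, 47 of them in the table, had 4 genes called higher and 8 lower, beside 16.3% and 17.1% of all genes, and its largest called changes were on chromosome 17. It had 9 called higher and 24 lower without FOXD1null replicate 1, beside 27.4% and 27.7% of all genes. ATPAF2, a complex V assembly factor, was at -0.77 (limma adjusted p = 0.00395), COA3 of complex IV at -0.73 (limma adjusted p = 0.0126) and SCO1, a copper carrier for complex IV, at -0.65 (limma adjusted p = 9.94e-04). Their neighbours had medians of -0.50, -0.39 and -0.51. The median log2 fold change of the list was -0.08, or -0.16 without that library.

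Genes that maintain, transcribe and process the mitochondrial genome formed a list of 32, of which 3 were called higher and 8 lower, beside 16.3% and 17.1% of all genes, with a median of -0.07. When FOXD1null replicate 1 was left out, 5 were called higher and 17 lower, beside 27.4% and 27.7%, with a median of -0.15. TEFM, the elongation factor of mitochondrial transcription, had 360, 373 and 349 in 786-O and 261, 173 and 187 in FOXD1null, at -0.82 (limma adjusted p = 0.00459), with a neighbour median of -0.41 on chromosome 17. ELAC2, which cuts the 3′ ends of transfer RNAs from the long transcripts, was at -0.48 (limma adjusted p = 0.0223), also on chromosome 17. REXO2, a mitochondrial oligoribonuclease, had 1673, 1823 and 1862 against 3001, 2502 and 2544, at 0.58 (limma adjusted p = 0.00172).

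Among 16 nuclear regulators of respiration, 1 was called higher and 3 lower, beside 16.3% and 17.1% of all genes. When FOXD1null replicate 1 was left out, 4 were called higher and 4 lower, beside 27.4% and 27.7% of all genes. DESeq2 with all 6 libraries called 3 higher and 4 lower, beside 2930 and 2918 of all 16901 genes. PPARGC1A, the coactivator PGC-1alpha, known to drive mitochondrial biogenesis, had 325, 299 and 322 in 786-O and 59.3, 11.1 and 5.83 in FOXD1null. It was lowest in replicates 2 and 3 and had the largest change on these lists, with a log2 fold change of -4.21 (SE 0.670, limma adjusted p = 0.00215), or -5.12 without replicate 1. HIF1A, the oxygen-regulated subunit HIF-1alpha, had 1072, 1070 and 970 against 384, 246 and 290, at -1.78 (limma adjusted p = 1.32e-04). EPAS1, the related subunit HIF-2alpha, named after its values had been seen, had 4561, 4498 and 4432 in 786-O and 4611, 8676 and 8340 in FOXD1null. FOXD1null replicate 1 was close to 786-O and the others far above it, so that the log2 fold change was 0.63 and not called with all libraries (limma adjusted p = 0.0536) and 0.92 and called without replicate 1 (limma adjusted p = 1.34e-11), while DESeq2 called it higher with all 6. ESRRG, a nuclear receptor that works with PGC-1alpha, was at -1.46 with counts of 13.4 to 25.4 against 5.39 to 9.09 (limma adjusted p = 0.0199). MYC was the regulator called higher, with a log2 fold change of 0.74 (limma adjusted p = 2.93e-04).

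Nuclear respiratory genes are known for promoters bound by NRF1, GABP, YY1 and the estrogen-related receptors. In RefSeq promoters (GRCh38.p14, 250 bases before to 50 after the start, both strands), matched by symbol for 66 of the 83 nuclear subunit genes, the NRF1 letters GCGCATGCG stood in 10 genes (15.2%), against 1.92% of all 35116 promoters. The GABP letters CCGGAAGT stood in 10 genes (15.2% against 4.14%), the YY1 letters AAGATGGC in 11 (16.7% against 2.89%) and the receptor letters AAGGTCA in 9 (13.6% against 3.92%). At least 1 of the NRF1, GABP and YY1 words was in 28 genes (42.4% against 8.36%). The forkhead letters GTAAACA were in none of the 66 and in 3.42% of all promoters. Of the 26 matched genes called lower without FOXD1null replicate 1, 12 held 1 of the NRF1, GABP and YY1 words, and of the other 40, 16 did. For each member only the first listed promoter of its symbol was read, while the 35116 were counted as promoters and not as genes. The shares are therefore not of the same unit. These are matches of letters, not binding sites.

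The promoters of COX17, called higher, and COX10, called lower, are shown because each holds 2 kinds of these words and the genes moved in opposite directions. Capitals mark the matches. In COX17 (chr3:119677357-119677656, minus strand) they are the NRF1 word, which matches both strands in an overlapping run, and a GABP word, and in COX10 (chr17:14069254-14069553, plus strand) they are GABP words and a YY1 word.
COX17: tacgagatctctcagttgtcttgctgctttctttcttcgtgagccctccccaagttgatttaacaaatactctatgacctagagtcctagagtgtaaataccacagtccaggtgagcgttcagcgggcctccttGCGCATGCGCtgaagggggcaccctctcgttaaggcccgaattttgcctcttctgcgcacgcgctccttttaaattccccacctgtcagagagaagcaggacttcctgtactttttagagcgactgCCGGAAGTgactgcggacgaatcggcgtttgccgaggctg
COX10: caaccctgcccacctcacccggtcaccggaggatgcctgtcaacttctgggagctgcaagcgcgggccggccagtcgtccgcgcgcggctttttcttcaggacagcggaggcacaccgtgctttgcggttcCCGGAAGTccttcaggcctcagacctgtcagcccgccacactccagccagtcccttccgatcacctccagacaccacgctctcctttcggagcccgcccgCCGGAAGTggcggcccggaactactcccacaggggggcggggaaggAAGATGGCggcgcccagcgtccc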

How the data were processed

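RNA of 786-O and 786-O FOXD1null (3 extracts each) was sequenced by the study. The labels name an mRNA library kit and the paper's text total RNA libraries, so whether polyadenylated RNA was selected, which affects the mitochondrial values, is not settled. Per the labels, reads were trimmed with Trimmomatic 0.36 and aligned to hg38 with STAR 2.5.2b. The authors counted unique reads with featureCounts and deposited normalized count signal, each count divided by a DESeq2 size factor, together with group means, their own DESeq2 log2 fold changes, Wald p-values and differences of means (an other value), none of which were used. Whole reads could be recovered for 100% of values (within 0.001 of a read). No source used here gives the annotation release or the strand setting. Names and positions came from reference tables and GENCODE 44.

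The main test was limma 3.58.1, without covariates and with a trended prior, on the log2 of the normalized count plus 1, over 16901 genes whose mean was 10 or more, adjusted by Benjamini-Hochberg and called at 0.05. Such fold changes are smaller than those of the counts for low genes. Alternatives were other scalings, pseudocounts and filters, edgeR 4.0.16, DESeq2 1.42.0, a replicate block and leaving out libraries. The members, lists and alternatives were chosen with earlier results of these data known. Genes were named by rule: all mitochondrial members, the 3 largest calls and the most abundant gene of each complex and of the assembly factors, changes of at least 1, listed isoforms and the members beside the threshold. For the further lists the 3 largest calls were named. The other called members, the 3 largest calls without FOXD1null replicate 1 and the most abundant nuclear genes were named after their values had been seen. Neighbours are tested genes that start within 5 Mb.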

Additional observations from a re-analysis of the deposited data

How the results depend on the processing

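The counts of calls depended most on FOXD1null replicate 1. Leaving out each library in turn, the members called higher ranged from 5 to 25 and lower from 6 to 47, nuclear subunit genes higher from 0 to 12 and lower from 1 to 34, and mitochondrially encoded genes higher from 3 to 8 and lower from 0 to 1, with the highest of each without FOXD1null replicate 1. Over all genes, the same fits called from 1801 to 4623 higher and from 1816 to 4673 lower. The medians ranged from -0.09 to 0.12 for nuclear subunit genes and from 0.07 to 0.13 for mitochondrially encoded genes. Nuclear subunit genes called were 8 higher and 3 lower by DESeq2, 2 lower with TMM factors and 2 lower by edgeR. Scaling to equal totals, over all genes or over nuclear genes alone, gave 16 members lower and 1 higher and 6 lower nuclear subunit genes, and mitochondrial medians of 0.00516 and 0.00554. With the replicate block 2 nuclear subunit genes were called higher and 0 mitochondrially encoded genes lower. Same-numbered libraries deviated from their group means with correlations of -0.27, -0.28 and 0.01, and the other pairs with -0.20 to 0.28. Deviations from a mean of 3 libraries are tied to each other. These values therefore cannot tell whether same-numbered extracts were handled together. Other pseudocounts and filters moved none of these counts by over 1.5 times.

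Further alternatives were chosen after seeing the data. DESeq2 without FOXD1null replicate 1 called 23 members higher and 47 lower, beside 4121 and 4122 of all 16901 genes. That fit called 10 and 34 nuclear subunit genes, and 8 and 2 mitochondrially encoded genes. Equal totals without FOXD1null replicate 1 called 14 members higher and 71 lower, beside 3564 and 5972 of all genes. Among them were 3 and 54 nuclear subunit genes, with a median of -0.18, and 6 and 4 mitochondrially encoded genes. Leaving out 786-O replicate 2 as well as FOXD1null replicate 1 gave 26 and 50 members, beside 4670 and 4616 of all 16692 genes tested. It gave 13 and 37 nuclear subunit genes and 8 mitochondrially encoded genes higher. NDUFS5 turned from 0.04 to -0.11 without FOXD1null replicate 1, to -0.11 by DESeq2 and -0.20 with equal totals there, and to -0.10 without 786-O replicate 2 as well, and with equal totals there ATP5F1B was at -0.13 and UQCRH at -0.15. The cause was not tested. With 3 extracts a group, small changes can be missed.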

Other observations

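The mitochondrial transfer RNA genes and the nuclear copies of mitochondrial genes were not part of the comparisons above. Of 22 transfer RNA genes, 1 was called higher and 5 lower with all 6 libraries, beside 16.3% and 17.1% of all genes, with a median log2 fold change of -0.09. When FOXD1null replicate 1 was left out, 3 were called higher and 7 lower, beside 27.4% and 27.7%. MT-TL1, the leucine transfer RNA gene beside MT-ND1, had 3563, 3395 and 3498 in 786-O and 2416, 2646 and 2712 in FOXD1null, at -0.43 (limma adjusted p = 0.00212). MT-TC, on the strand of MT-ND6, had 1607, 1717 and 1683 against 1983, 2686 and 2539, at 0.51 (limma adjusted p = 0.00904). MT-TA, on the same strand, was called lower, at -0.57 (limma adjusted p = 0.0208). The remaining transfer RNA genes of that strand were not called with all 6 libraries.

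Of 20 nuclear copies of mitochondrial genes, 3 were called higher (15%, beside 16.3% of all genes) and none lower, with a median of 0.29. Leaving out FOXD1null replicate 1, 8 were called higher (40%, beside 27.4%) and none lower. MTND6P4, on chromosome 5, had 85.9, 85.2 and 72.7 in 786-O and 162, 123 and 152 in FOXD1null, at 0.83 (limma adjusted p = 0.00402), the same direction as MT-ND6. Reads of the copies and of the mitochondrial genes share sequence and cannot be fully separated. MT-TL1, MT-TC, MT-TA and MTND6P4 were chosen after their values were seen.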
